A study of Mus musculus with 12 samples.

Results

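Genes that do their work in the liver, in skeletal muscle and in blood cells were examined as the floor of a histone mark in forebrain cells. The set holds 39 genes of the 27095 in the count tables: 15 liver genes, 12 muscle genes and 12 blood genes. They were picked by name from what the genes are known for, not by their counts, although earlier results of these data were known by then. All 39 were found in both tables. The mark, acetylation of histone H3 at lysine 14 (H3K14ac), was mapped in mouse neural stem and progenitor cells by ChIP-seq, the sequencing of DNA that an antibody brings down with the chromatin. RNA was not measured here, so that the genes are silent in these cells is an assumption from their known biology and was not tested.

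The cells came from the cortex and ganglionic eminences of wild-type (WT) foetuses at day E14.5. Proliferating cells grew as neurospheres, floating balls of dividing cells. Differentiating cells were neurospheres taken apart and plated on laminin in a cortical neuron medium. Each stage has 3 WT H3K14ac ChIP libraries (antibody Abcam ab52946), 1 WT input library of chromatin that was not precipitated, 1 IgG library precipitated with a non-specific antibody, and 1 H3K14ac ChIP library labelled Hbo1 null, from cells with the gene Kat7 (also called Hbo1) deleted. The labels give no genotype for the IgG libraries, and their antibody field names the H3K14ac antibody for input and IgG as well. The design text names 4 WT foetuses. The labels give no Cre, strain or clone, and do not say how foetuses or cultures map to replicate numbers. P-values here thus measure only the spread between these libraries, which may be technical in part. Y gene levels, given with Gata1 below, differ between WT libraries of a stage. These libraries thus do not all hold the same mix of male and female cells. In IgG the Y level was far above that in input at both stages, so these too differ in that mix. Each stage has 1 library of each control, so a control has no replicate within its stage.

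Acetyl groups on the tail of histone H3 are found mostly at the starts of genes that are in use. HBO1, the product of Kat7, is an acetyltransferase that works in complexes with BRPF or JADE scaffold proteins and is a main writer of H3K14ac. A gene without the mark still gives reads in a ChIP library, since some chromatin comes down with any antibody, and input and IgG are the measures of that background. Liver, muscle and blood genes are under the control of factors that are specific to their tissues (for example MYOD1 in muscle and GATA1 in red cells), and many of them are standard markers of those tissues. Whether some members are also in use in other cells of the brain, such as microglia or choroid plexus, was not tested.

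For each gene, reads were counted in the first 1 kb from the transcription start (TSS window) and from end to end of the gene (gene body; the window is part of it). Levels are counts per 1e6 gene body counts (CPM). Every window is 1 kb, so window levels are per length, except that windows of shorter genes end with the gene. Gene body totals were 3992697 to 7611239 counts in the proliferating and 12549913 to 17074249 in the differentiating WT libraries, 11871306 and 12689734 in input, 2526252 and 2771713 in IgG, and only 64071 and 320601 in the libraries labelled Hbo1 null. Kat7 itself had 26.9 to 37.9 CPM over its body in the WT libraries and 41.1 to 47.5 in input and IgG. The libraries labelled Hbo1 null still held 4 and 11 Kat7 counts, or 62.4 and 34.3 CPM, so that this check does not show a loss, and the labels do not say which part of Kat7 was deleted. WT proliferating replicate 1 stood apart from the other WT libraries in several sums below, and the tissue sums are given with and without it.

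The promoters of these genes are poor in CpG, the base pair step at which DNA is methylated and which is common at the starts of broadly used genes. RefSeq promoters (GRCm38, the build also named mm10; 250 bases before to 50 after a start) were at hand for 30 of the 39 genes, and the first listed start of a gene was used, which need not be the start the authors counted from. The sequences below show what a start poor in CpG looks like in each tissue, with Sox2, a neural stem cell factor, as the contrast. Letters are 5′ to 3′ on the gene's strand, and each CpG is in capitals.

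Alb (chr5:90460620-90460919, plus strand, 3 CpG): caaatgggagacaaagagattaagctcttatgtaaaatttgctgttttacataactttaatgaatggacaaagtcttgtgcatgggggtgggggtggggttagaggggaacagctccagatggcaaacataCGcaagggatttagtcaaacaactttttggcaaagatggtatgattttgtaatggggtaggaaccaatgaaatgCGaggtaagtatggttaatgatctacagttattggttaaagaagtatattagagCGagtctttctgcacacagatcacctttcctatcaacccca

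Ckm (chr7:19410844-19411143, plus strand, 7 CpG): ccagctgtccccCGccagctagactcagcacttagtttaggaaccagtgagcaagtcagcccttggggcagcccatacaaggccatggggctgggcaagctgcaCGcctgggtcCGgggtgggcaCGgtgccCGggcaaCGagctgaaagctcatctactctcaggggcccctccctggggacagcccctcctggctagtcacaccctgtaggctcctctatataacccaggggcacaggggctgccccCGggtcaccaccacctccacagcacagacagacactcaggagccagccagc

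Ptprc (chr1:138175256-138175555, minus strand, 4 CpG): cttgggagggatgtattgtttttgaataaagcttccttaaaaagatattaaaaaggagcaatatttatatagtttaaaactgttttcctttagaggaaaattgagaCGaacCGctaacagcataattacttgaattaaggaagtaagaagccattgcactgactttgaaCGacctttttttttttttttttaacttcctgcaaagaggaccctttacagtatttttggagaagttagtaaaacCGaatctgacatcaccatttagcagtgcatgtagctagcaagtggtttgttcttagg

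Klf1 (chr8:84901732-84902031, plus strand, 3 CpG): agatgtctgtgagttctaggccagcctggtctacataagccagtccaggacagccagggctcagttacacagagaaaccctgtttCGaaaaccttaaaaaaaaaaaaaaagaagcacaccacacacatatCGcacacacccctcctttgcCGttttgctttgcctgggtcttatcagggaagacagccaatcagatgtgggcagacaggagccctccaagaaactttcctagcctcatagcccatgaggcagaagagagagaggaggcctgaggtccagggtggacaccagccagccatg

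Sox2 (chr3:34649745-34650044, plus strand, 27 CpG): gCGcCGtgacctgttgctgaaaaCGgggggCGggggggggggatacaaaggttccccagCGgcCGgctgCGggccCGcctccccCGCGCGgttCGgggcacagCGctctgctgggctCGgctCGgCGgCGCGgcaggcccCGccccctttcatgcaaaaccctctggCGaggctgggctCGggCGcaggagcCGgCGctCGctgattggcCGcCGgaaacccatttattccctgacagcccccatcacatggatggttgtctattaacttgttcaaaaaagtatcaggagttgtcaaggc

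None of the 30 promoters was dense in CpG (over 50% GC and an observed to expected CpG ratio over 0.6), against 44.9% of the 18458 promoters of all genes and 12 of the 17 promoters of neural stem and progenitor genes. Members held 1 to 11 CpG, with a median of 4 against 13 for all genes. The letters TATAAA, searched on both strands, were in 10 of the 30 (33.3%) and in 13.1% of all promoters. Among the members the count was 6 of 14 for liver, 3 of 8 for muscle and 1 of 8 for blood. The olfactory receptor genes, another family of tissue-restricted genes, had 0 of 940 promoters dense in CpG.

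At the gene starts the 39 genes together lay near the levels of input and IgG. These are whole cultures, in which a low level in all cells and a higher one in a few cannot be told apart. Their summed TSS windows held 56.6, 37.3 and 45.3 CPM in WT proliferating and 41.7, 41.7 and 39.1 in WT differentiating libraries. The controls held 49.4 and 50.2 for proliferating and differentiating input, with 46.7 and 37.9 for IgG. The proliferating libraries spread to both sides of input, with replicate 1 highest, while all 3 differentiating libraries lay below input and above IgG. The mean log2 ratio of WT to input was −0.11 (SD 0.30, n = 3) for proliferating and −0.30 (SD 0.053, n = 3) for differentiating cells, and to IgG it was −0.03 and 0.11 with the same spreads. The same sum over 25 neural stem and progenitor genes gave log2 ratios to input of 1.72 and 0.82, and to IgG of 1.24 and 0.98. The IgG and input libraries also differed from each other: the members' sum in IgG was 0.945 times that in input for proliferating (95% counting interval 0.768 to 1.15) and 0.755 times for differentiating cells (0.608 to 0.929).

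Liver genes lay at input in proliferating cells. The 15 windows summed to 17.6, 14.3 and 17.3 CPM in WT proliferating and 16.3, 18.0 and 16.5 in WT differentiating libraries. The controls had 16.3 and 19.1 for proliferating and differentiating input, with 19.4 and 15.5 for IgG. All 3 proliferating libraries were below IgG and all 3 differentiating ones were above it (means −0.25 and 0.12, but −0.76 and −0.12 when taken as shares of TSS window counts), and the log2 means against input were −0.00 (SD 0.17) and −0.18 (SD 0.079). For muscle the 12 windows summed to 22.2, 12.3 and 12.6 CPM in WT proliferating and 12.7, 11.7 and 11.7 in WT differentiating libraries. Their controls had 15.6 and 16.2 for proliferating and differentiating input, with 13.5 and 11.9 for IgG. Replicate 1 of the proliferating cells was above every control and the other 5 WT libraries were below input, with log2 means against input of −0.05 (SD 0.48) and −0.43 (SD 0.067). For blood the 12 windows summed to 16.7, 10.8 and 15.4 CPM in WT proliferating and 12.7, 11.97 and 10.95 in WT differentiating libraries. Here the controls had 17.5 and 14.8 for proliferating and differentiating input, with 13.9 and 10.5 for IgG. All 6 WT libraries were below input, with log2 means of −0.32 (SD 0.34) and −0.32 (SD 0.11), and against IgG the means were 0.02 and 0.18. Without WT proliferating replicate 1 the proliferating means against input were −0.05 for liver, −0.32 for muscle and −0.45 for blood, and against IgG −0.30, −0.11 and −0.11, so that the side of IgG changed for muscle and blood.

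**Figure D1:**
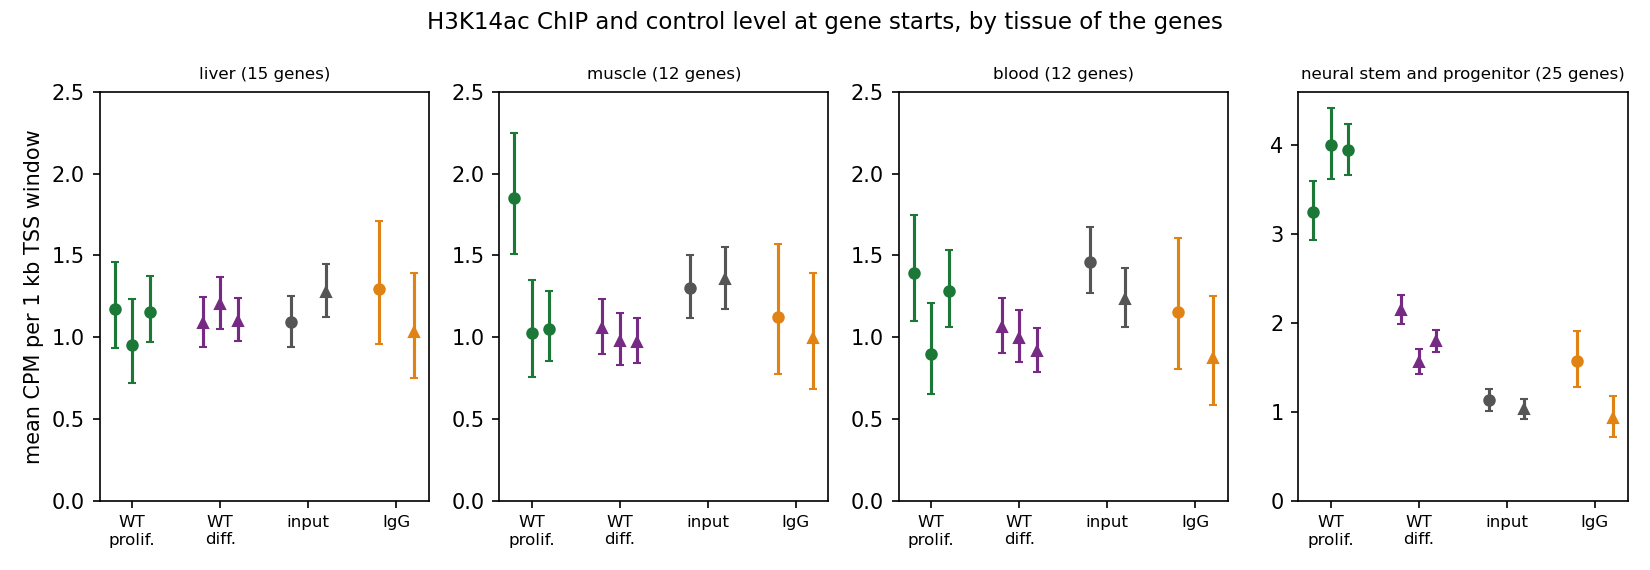
Mean level per 1 kb TSS window (CPM, y axis) of 15 liver, 12 muscle, 12 blood and 25 neural stem and progenitor genes in each library; circles are proliferating and triangles differentiating libraries, and bars are 95% exact Poisson intervals, which cover counting error only. The first 3 panels share a scale, on which WT lies near input and IgG. For blood all 6 WT libraries are below the input of their stage, and for muscle all but proliferating replicate 1. In the neural stem panel, with its own scale, all 6 WT libraries are above input and IgG.

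Roles within a tissue did not all lie on the same side. In differentiating cells the 3 muscle regulatory factors were close to input (log2 −0.08, SD 0.12), while the 7 contractile or cytoskeletal genes were below it in all 3 libraries (−0.56, SD 0.038). Against IgG the same 2 roles were at 1.18, above it in all 3 libraries, and −0.28. In proliferating cells the regulatory factors were at −0.16 over input (SD 0.69) and 0.099 over IgG, and the contractile or cytoskeletal genes at 0.047 (SD 0.50) and −0.042. The 2 energy and oxygen genes, Ckm and Mb, were at −0.28 and −0.56 over input (SD 0.38 and 0.48, proliferating and differentiating) and at 1.58 and −0.26 over IgG. Among blood genes, the 4 erythroid genes were at input in proliferating cells (0.085, SD 0.19) and below it in all 3 differentiating libraries (−0.64, SD 0.24). The 4 lymphoid genes were below input in all 6 libraries (−0.70 and −0.55, SD 0.58 and 0.11). The 4 leukocyte and myeloid genes were at −0.41 and 0.13 (SD 0.36 and 0.35). Liver plasma protein genes (10) were at 0.04 and −0.20, and liver metabolic enzymes (5) at −0.07 and −0.14. Over IgG, proliferating and differentiating, the means were 0.083 and 0.21 for erythroid, −0.41 and 0.063 for lymphoid, 0.32 and 0.20 for leukocyte and myeloid, −0.23 and −0.00 for plasma protein and −0.29 and 0.37 for metabolic enzyme genes. These sums rest on few genes and, for proliferating cells and for IgG, on few counts, and differences between roles were not tested. In differentiating IgG the windows of Myod1 and Myog held 2 counts each and that of Myf5 held 0. In proliferating IgG those of Ckm and Mb held 1 count each. The ratios of 1.18 and 1.58 over IgG rest on these counts.

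Gene by gene, no member's TSS window passed the test against input. Counts per window were low: medians over the 39 members were 7, 4 and 9 for WT proliferating, 14, 13 and 16 for WT differentiating libraries, 15 and 17 in input, and 2 in both IgG libraries. In a fit of 6 WT and 2 input libraries by edgeR's quasi-likelihood test, 28 of the 39 reached a mean count of 10 and were tested. Of all 21557 genes tested, 11.6% were higher than input and 0.881% lower at an adjusted p under 0.05, and of the 28 members 0 were called in either direction. The share called higher hung on the 2 input libraries: it was far smaller without the proliferating one and larger without the differentiating one. The median log2 ratio over all genes tested was 0.11 and 0.49 in those fits, against 0.25 with both. The members' medians were −0.13 and −0.01, against −0.15. At an unadjusted p under 0.05 in the main fit, 0 of the 28 members were higher and 4 were lower (Cd79a, Mylpf, Cd8a and Klf1). DESeq2, run throughout with its own size factors, called 0, with 5 lower unadjusted. It thus changed the scaling as well as the test, and the median over all genes tested was −0.01. Without the count filter all 39 could be fitted, and their median log2 ratio was −0.22 against 0.18 for all genes. Scaling matters here, since TMM, which centres the bulk of genes, moved the median over all genes tested from 0.25 to −0.02 and put Cd79a and Mylpf past the threshold as lower. Without WT proliferating replicate 1, Mylpf was lower.

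The position of the libraries can be counted without a filter. In 3 of the 39 genes (Alb, Cyp2e1 and Myh1) all 6 WT libraries were above the input of their stage, against 18.3% of all genes. In 6 (Cyp3a11, Myod1, Actn3, Ckm, Cd8a and Cd79a) all 6 were below, against 7.46%. Within proliferating cells 7 members had all 3 libraries above and 11 all 3 below (40.3% and 16.7% of all genes), and within differentiating cells 5 and 19 (30.5% and 25.4%). Tested within a stage by edgeR, 0 members were called in proliferating cells, where 17.7% of all genes were higher and 0.524% lower, and 0 in differentiating cells, where 0.0835% and 0.00464% were. At an unadjusted p under 0.05, 1 member was lower in proliferating and 4 in differentiating cells. DESeq2 was not run within a stage.

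**Figure D2:**
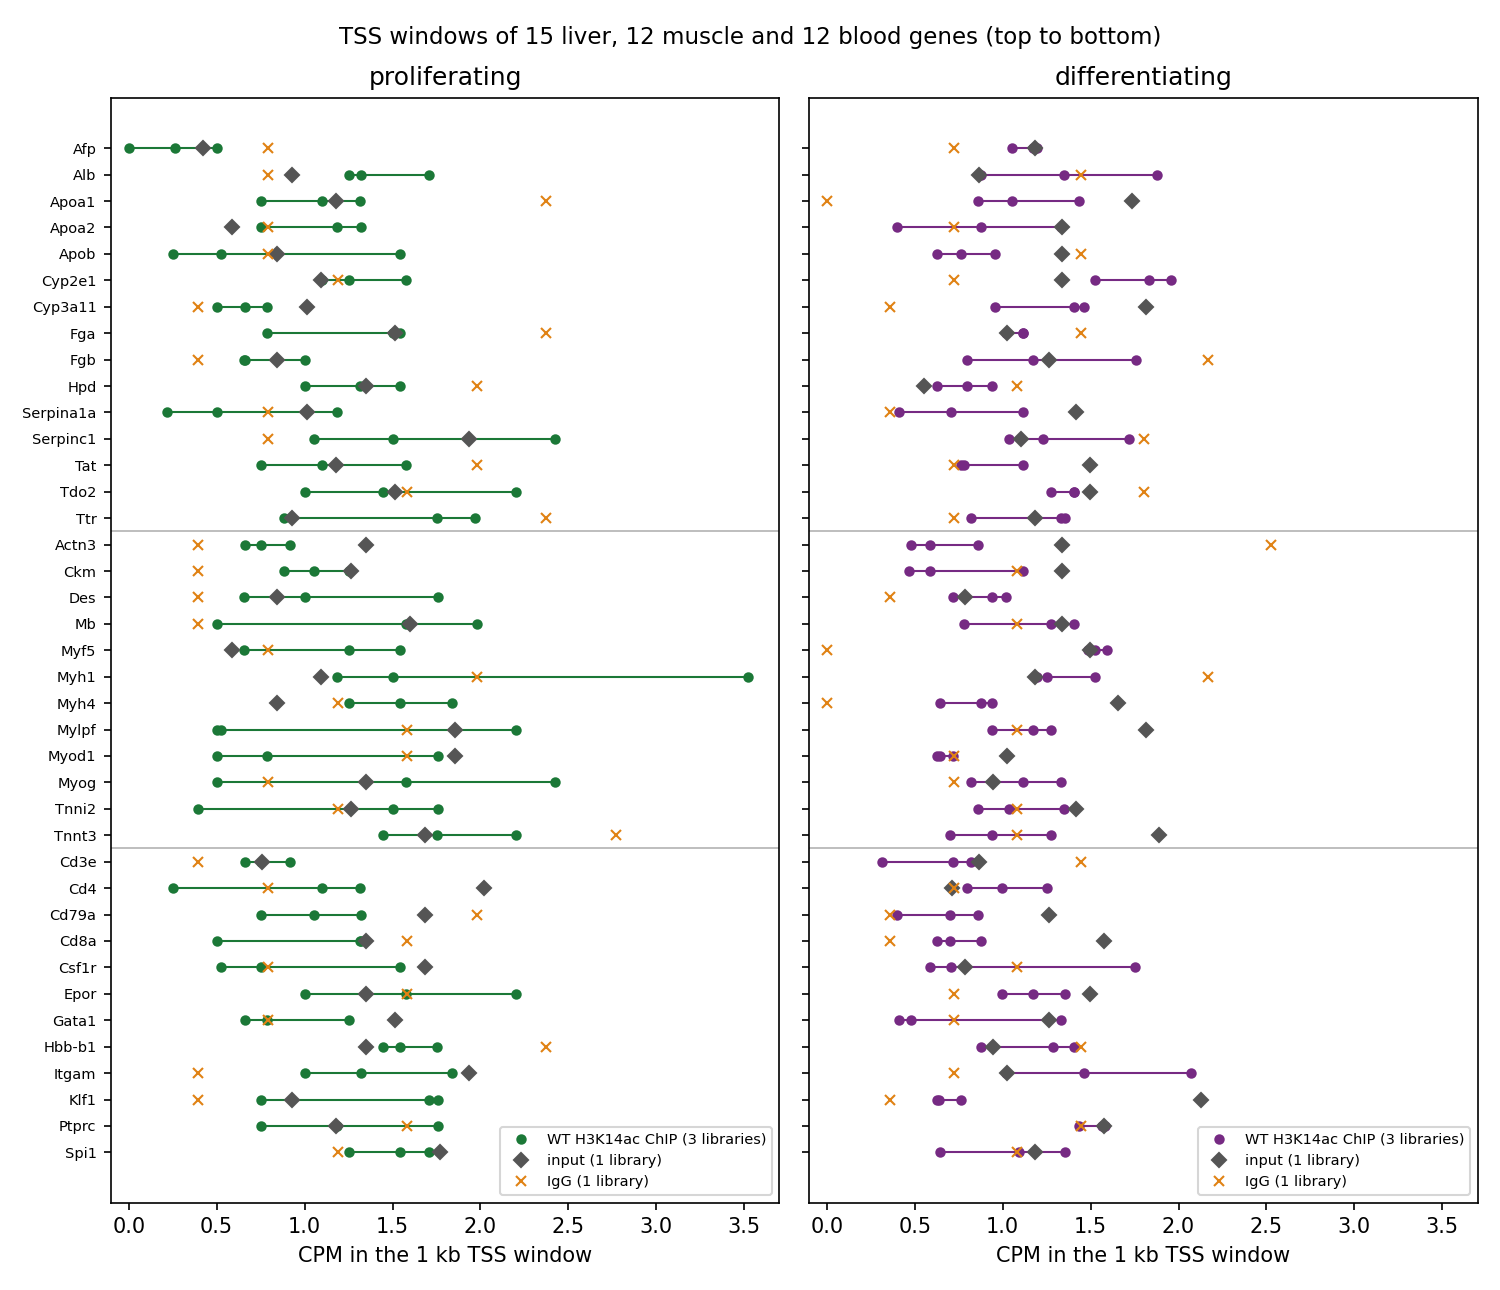
Level in the TSS window (CPM, x axis) of each of the 39 genes (y axis), proliferating in one panel and differentiating in the other. Dots joined by a line are the 3 WT libraries, the diamond is input and the cross IgG, and grey lines part liver, muscle and blood. Input is neither above nor below all 3 WT libraries in 21 of the genes for proliferating and 15 for differentiating cells, and the highest window, Myh1 in WT proliferating replicate 1, is at 3.52 CPM.

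The liver genes fall into proteins secreted into plasma and enzymes of metabolism. Alb encodes albumin, the main plasma protein (chromosome 5, 90460870 to 90476602). Its window held 1.32, 1.25 and 1.71 CPM in WT proliferating and 0.876, 1.88 and 1.35 in WT differentiating libraries. Control values were 0.927 and 0.867 for proliferating and differentiating input, with 0.792 and 1.44 for IgG. It was the highest liver window relative to input among those tested, with every WT library above the input of its stage, and it did not pass (log2 0.66, SE 0.37, edgeR adjusted p = 0.232). IgG of the differentiating stage was within the WT range.

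Cyp2e1, a cytochrome P450 that oxidises ethanol (chromosome 7, 140763819 to 140774990), was next. It held 1.10, 1.25 and 1.58 CPM in WT proliferating and 1.83, 1.96 and 1.52 in WT differentiating libraries. Against these stood 1.10 and 1.34 for proliferating and differentiating input, with 1.19 and 0.722 for IgG. Each WT library was above the input and the IgG of its stage except 1 proliferating library that was below IgG, and the test did not pass (log2 0.35, SE 0.35, edgeR adjusted p = 0.555). At the other end of the liver windows tested stood Cyp3a11, a cytochrome P450 of drug metabolism (chromosome 5, 145854607 to 145879854), with 0.660, 0.501 and 0.788 CPM in WT proliferating and 0.956, 1.41 and 1.46 in WT differentiating libraries. It had 1.01 and 1.81 for proliferating and differentiating input, with 0.396 and 0.361 for IgG. WT was below input and above IgG in all 6 libraries (log2 −0.51, SE 0.35, edgeR adjusted p = 0.355 against input); as a member of a family of near-identical genes its reads may be shared with copies.

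Apoa1, the main protein of high-density lipoprotein (chromosome 9, 46228630 to 46230469), was the next lowest of those tested. It held 1.10, 0.751 and 1.31 CPM in WT proliferating and 1.43, 0.861 and 1.05 in WT differentiating libraries. The controls read 1.18 and 1.73 for proliferating and differentiating input, with 2.38 and 0 for IgG. Input of the differentiating stage was above its 3 WT libraries, input of the proliferating stage was among them, and IgG went from the highest value to no count at all (log2 −0.43, SE 0.34, edgeR adjusted p = 0.436). The other plasma protein genes tested were Ttr, Serpinc1, Fga and Fgb, at log2 0.31, −0.03, −0.12 and −0.04, and the other enzymes tested were Tdo2 and Tat, at −0.06 and −0.42. Afp, Apoa2, Apob, Serpina1a and Hpd had mean counts under 10 and were not tested.

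The muscle genes run from the factors that set muscle identity to the filaments and the energy supply. Myod1 encodes the factor that can turn fibroblasts into muscle (chromosome 7, 46376474 to 46379092). Its window held 1.76, 0.501 and 0.788 CPM in WT proliferating and 0.717, 0.626 and 0.644 in WT differentiating libraries. The controls had 1.85 and 1.02 for proliferating and differentiating input, with 1.58 and 0.722 for IgG. Every WT library was below the input of its stage, and in proliferating cells the 3 WT libraries ranged from below IgG to above it; its mean count was under 10 and it was not tested.

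Myf5, another such factor (chromosome 10, 107482908 to 107486927), held 1.54, 1.25 and 0.657 CPM in WT proliferating and 1.59, 1.49 and 1.52 in WT differentiating libraries. Its controls were at 0.590 and 1.497 for proliferating and differentiating input, with 0.792 and 0 for IgG. The 3 differentiating libraries sat at input, and the proliferating ones were all above it (log2 0.27, SE 0.36, edgeR adjusted p = 0.675). Myh1, a myosin heavy chain of fast fibres (chromosome 11, 67200102 to 67224577), had 3.52, 1.503 and 1.18 CPM in WT proliferating and 1.195, 1.25 and 1.52 in WT differentiating libraries. For its controls the values were 1.10 and 1.18 for proliferating and differentiating input, with 1.98 and 2.16 for IgG. Replicate 1 of the proliferating cells was the highest single window value of the set, all 6 WT libraries were above input, 5 of 6 were below IgG, and the test did not pass (log2 0.48, SE 0.35, edgeR adjusted p = 0.395).

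Mylpf encodes a light chain of fast myosin (chromosome 7, 127208848 to 127214288) and was the lowest muscle window relative to input among those tested. Its window held 2.20, 0.501 and 0.526 CPM in WT proliferating and 1.27, 1.17 and 0.937 in WT differentiating libraries. Its controls held 1.85 and 1.81 for proliferating and differentiating input, with 1.58 and 1.08 for IgG. Replicate 1 of the proliferating cells was above input and the other 5 libraries below (log2 −0.77, SE 0.33, edgeR adjusted p = 0.0964; unadjusted p = 0.0175). Septin1 overlaps Mylpf, so its reads may enter this count. Tnnt3, a fast troponin T (chromosome 7, 142498771 to 142516213), held 2.20, 1.75 and 1.45 CPM in WT proliferating and 1.27, 0.939 and 0.703 in WT differentiating libraries. There the controls were 1.68 and 1.89 for proliferating and differentiating input, with 2.77 and 1.08 for IgG. All 3 differentiating libraries were below input (log2 −0.51, SE 0.32, edgeR adjusted p = 0.307). Myog, Myh4, Tnni2 and Mb were tested at log2 0.18, −0.22, −0.31 and −0.18, and Actn3, Des and Ckm were not tested.

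The blood genes cover lymphocytes, myeloid cells and red cells. Ptprc (CD45) is the phosphatase on nearly all white blood cells (chromosome 1, 138062859 to 138175756). Its window held 1.76, 0.751 and 1.18 CPM in WT proliferating and 1.43, 1.56 and 1.58 in WT differentiating libraries. The controls were at 1.18 and 1.58 for proliferating and differentiating input, with 1.58 and 1.44 for IgG. WT and both controls overlapped in proliferating cells, and in differentiating cells all 5 libraries were between 1.43 and 1.58 CPM (log2 0.00, SE 0.34, edgeR adjusted p = 0.999).

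Cd79a, a signalling chain of the B cell receptor (chromosome 7, 24897497 to 24901858), was the lowest blood window relative to input among those tested. It held 1.32, 0.751 and 1.05 CPM in WT proliferating and 0.398, 0.861 and 0.703 in WT differentiating libraries. Input and IgG gave 1.68 and 1.26 for proliferating and differentiating input, with 1.98 and 0.361 for IgG. In each WT library it was below input, and the test missed the threshold (log2 −0.80, SE 0.37, edgeR adjusted p = 0.133; unadjusted p = 0.0294). Cd8a, the co-receptor of killer T cells (chromosome 6, 71373427 to 71379171), held 1.32, 0.501 and 1.31 CPM in WT proliferating and 0.876, 0.626 and 0.703 in WT differentiating libraries. Its controls gave 1.35 and 1.58 for proliferating and differentiating input, with 1.58 and 0.361 for IgG. It too was below input in all 6 WT libraries (log2 −0.74, SE 0.36, edgeR adjusted p = 0.158; unadjusted p = 0.0390).

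Itgam, the myeloid integrin CD11b (chromosome 7, 128062640 to 128118491), and Hbb-b1, an adult beta globin, were the high end of those tested. Itgam held 1.32, 1.00 and 1.84 CPM in WT proliferating and 2.07, 1.02 and 1.46 in WT differentiating libraries. Its controls were 1.94 and 1.02 for proliferating and differentiating input, with 0.396 and 0.722 for IgG. It was above IgG in all 6 libraries and on both sides of input (log2 0.08, SE 0.34, edgeR adjusted p = 0.907). Hbb-b1 held 1.54, 1.75 and 1.45 CPM in WT proliferating and 0.876, 1.41 and 1.29 in WT differentiating libraries. Its controls were 1.35 and 0.946 for proliferating and differentiating input, with 2.38 and 1.44 for IgG. It was below the IgG of the stage in all 6 WT libraries (log2 0.27, SE 0.35, edgeR adjusted p = 0.670), and its reads may be shared with other beta globin genes.

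Gata1, the master factor of red cell formation and the only X-linked member (chromosome X, 7959260 to 7976663), had 0.660, 1.25 and 0.788 CPM in WT proliferating and 0.478, 1.33 and 0.410 in WT differentiating libraries in its window. Its controls had 1.52 and 1.26 for proliferating and differentiating input, with 0.792 and 0.722 for IgG, and its mean count was too low for the test. Over its body it held 7.70, 8.52 and 7.62 CPM in WT proliferating and 6.85, 7.67 and 4.04 in WT differentiating libraries. The body controls were 8.76 and 11.3 for proliferating and differentiating input, with 6.73 and 3.25 for IgG. The share of gene body counts on the X chromosome moved with the libraries, at 2.49%, 3.59% and 3.31% for WT proliferating, 3.64%, 3.95% and 2.34% for WT differentiating libraries, 3.22% and 3.53% for input, and lower in IgG at 2.00% and 2.40%. The 4 Y genes Kdm5d, Uty, Ddx3y and Eif2s3y summed to 22.9, 4.51 and 4.204 CPM, and 3.98, 5.55 and 119.8 CPM, in those WT libraries, 3.201 and 3.86 in input, and 119.9 and 133.5 for IgG. The libraries thus differ in their X and Y content, and its part in the Gata1 values was not tested.

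Klf1, a factor that switches on globin genes (chromosome 8, 84901982 to 84905291), held 1.76, 0.751 and 1.71 CPM in WT proliferating and 0.637, 0.626 and 0.761 in WT differentiating libraries. Its controls held 0.927 and 2.13 for proliferating and differentiating input, with 0.396 and 0.361 for IgG. All 3 differentiating libraries were far below the input of their stage and the proliferating ones were around theirs. The test of that stage difference gave log2 −2.29, SE 0.70, with an edgeR adjusted p of 0.167 (unadjusted p = 0.00115), and the input window itself went from 11 to 27 counts. Of all genes, 0% were higher and 0.0278% lower in that test, and 0 members were called. At an unadjusted p under 0.05, 1 member was higher and 2 were lower, and DESeq2 was not run for it. Cd4, Csf1r, Spi1 and Epor were tested at log2 −0.30, −0.30, −0.22 and −0.09 over input, and Cd3e was not tested.

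Against IgG the depth allowed less. The IgG libraries held 0 to 7 counts per member window, and 11 of the 39 members reached the mean count of 10. By edgeR 0 of the 11 were called, where 5.13% of 13158 genes were higher than IgG and 0.205% lower. The share called higher was smaller without either IgG library, most so without the proliferating one. The median log2 ratio over all genes tested was then 0.52, or 0.76 without the differentiating one, against 0.67 with both. With both and without adjustment, 1 of the 11 members had a p under 0.05 and was higher (Myf5, log2 1.77, SE 0.85, edgeR adjusted p = 0.171). DESeq2 called 0, with 1 lower unadjusted. The differentiating IgG library had no count in the Myf5 window, so that the fitted ratio depends on the prior count. The same holds for Apoa1 and Myh4 in that library, for which no ratio is given. In 5 of the 39 genes (Cyp3a11, Myh4, Des, Itgam and Klf1) all 6 WT libraries were above the IgG of their stage, against 27.6% of all genes, and in 3 (Fga, Hpd and Hbb-b1) all 6 were below, against 5.84%. By stage, 13 members had all 3 proliferating libraries above IgG and 10 below (47.1% and 19.4% of all genes), and 17 and 11 the differentiating ones (51.9% and 21.4%). With TMM the median of the members tested changed sign, from 0.09 to −0.50, so no direction against IgG is given for them. Within a stage 0 members were called against IgG by edgeR, where 4.33% of all genes were higher and 0.16% lower in proliferating and 0.0228% lower in differentiating cells. The stage difference of the ratio to IgG gave 0 members as well, where 0.0304% of all genes were higher. At an unadjusted p under 0.05 these 3 tests held 1 member in all, higher in differentiating cells, and DESeq2 was not run for them.

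Whether reads gather at the start of a gene can be asked within a library, which does not depend on its total. The density of counts in the TSS window was divided by that in the rest of the gene body, summed over the members. It was 1.34, 1.04 and 1.21 in WT proliferating and 1.12, 1.11 and 1.06 in WT differentiating libraries. Input had 1.26 and 1.29, and IgG 1.202 and 1.08. The WT values of the members thus lay around the controls in proliferating cells and below input in differentiating cells. For the 25 neural stem and progenitor genes the ratio ran from 2.91 to 3.43 in the proliferating and from 1.52 to 1.97 in the differentiating ChIP of WT cells. Input had 1.06 and 0.991 for these genes, and IgG 1.57 and 0.918. The proliferating IgG value (95% counting interval 1.27 to 1.92) was thus above that of input (0.945 to 1.18). For all genes over 1 kb the ratio was 1.87 to 2.00 and 1.26 to 1.46, with 1.32 and 1.25 in input and 1.30 and 1.09 in IgG.

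**Figure D3:**
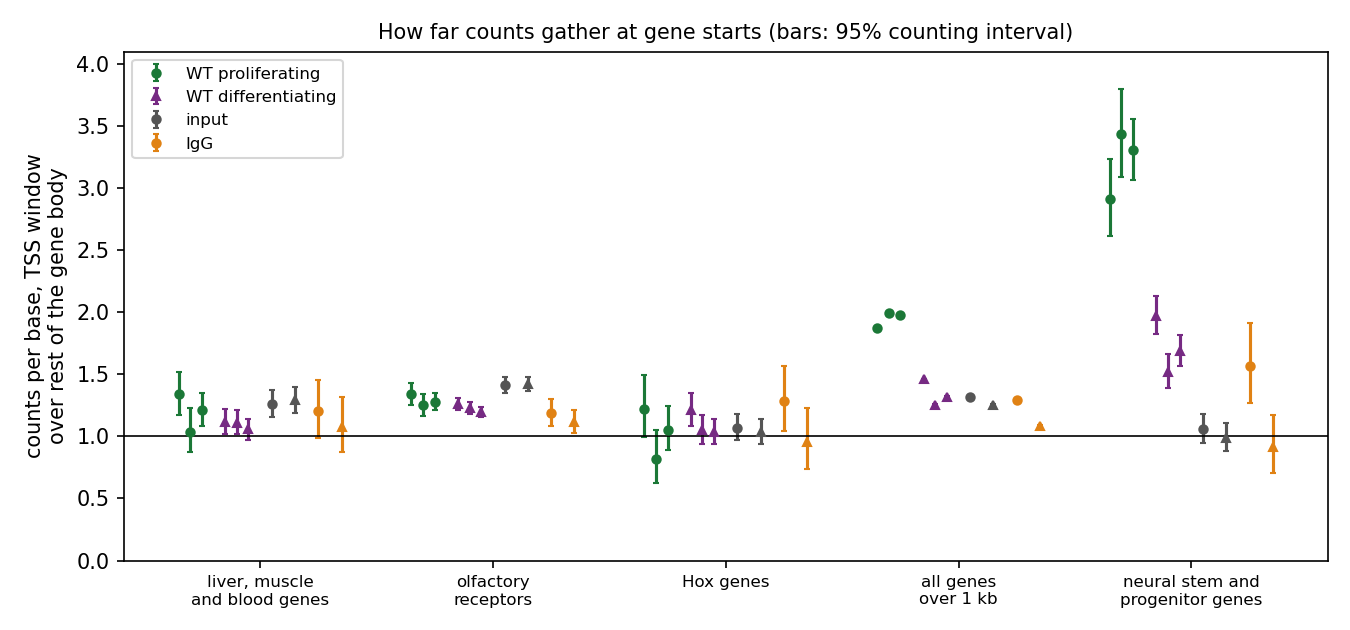
Density of counts in the TSS window divided by the density in the rest of the gene body (y axis, no unit) for 5 gene lists in each WT, input and IgG library; bars are 95% counting intervals. The intervals of the liver, muscle and blood genes in the WT libraries overlap those of IgG throughout, and the neural stem and progenitor genes are at 2.91 to 3.43 in the proliferating WT libraries.

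Gene bodies (with Tomm40l overlapping Apoa2, Septin1 overlapping Mylpf and Apol6 overlapping Mb, whose reads may enter) hold more counts (medians of 36 to 164 per member in the WT libraries), and there some members did differ from input. All 39 were tested by edgeR. Of these 3 were higher (Tdo2, Ptprc and Myf5) and 6 lower (Ckm, Cd79a, Actn3, Spi1, Serpina1a and Cd3e), where 8.43% of 24848 genes were higher and 21.3% lower. The members' median log2 ratio was −0.20 against −0.14 for all genes. Without the proliferating or without the differentiating input library 0 members were called, and without WT proliferating replicate 1 the count was 15; DESeq2 called 5. Of 13 alternatives, Myf5 passed in 5, Cd3e in 6, Actn3 in 7 and each of the other 6 in 9 to 11. All 6 WT libraries were above input in 4 members (11.5% of all genes) and below it in 9 (32.4%). By stage the numbers above and below were 6 and 9 for proliferating (18.6% and 40.5% of all genes) and 8 and 22 for differentiating cells (20.3% and 53.2%).

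Tdo2, the liver enzyme that opens the ring of tryptophan (chromosome 3, 81958412 to 81975728), held 17.4, 17.8 and 19.4 CPM in WT proliferating and 16.8, 16.9 and 17.9 in WT differentiating libraries over its body. The controls were at 13.5 and 11.03 for proliferating and differentiating input, with 20.2 and 21.3 for IgG. All 6 WT libraries were above input and all were below IgG (log2 0.55, SE 0.10, edgeR adjusted p = 0.00260). Ptprc held 93.8, 119 and 109 CPM in WT proliferating and 110, 116 and 125 in WT differentiating libraries. Its controls were at 88.2 and 93.0 for proliferating and differentiating input, with 93.8 and 114 for IgG. WT was above input in all 6 libraries and overlapped IgG (log2 0.31, SE 0.09, edgeR adjusted p = 0.0196). Its body is the longest and holds most counts of the blood genes: their summed body level over input was log2 −0.02 and −0.05 with it and −0.19 and −0.31 without it. Myf5 held 3.52, 3.26 and 2.496 CPM in WT proliferating and 4.46, 3.99 and 3.57 in WT differentiating libraries. Its controls were at 2.11 and 2.44 for proliferating and differentiating input, with 3.56 and 1.44 for IgG. Every WT library was above the input of its stage (log2 0.62, SE 0.22, edgeR adjusted p = 0.0498).

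On the low side, Ckm, the muscle creatine kinase (chromosome 7, 19411094 to 19421583), held 10.6, 5.26 and 7.36 CPM in WT proliferating and 7.65, 8.21 and 7.79 in WT differentiating libraries. Its controls were at 12.1 and 12.7 for proliferating and differentiating input, with 8.71 and 8.30 for IgG. WT was below input in all 6 libraries, overlapped IgG in proliferating cells and was below it in differentiating cells (log2 −0.67, SE 0.15, edgeR adjusted p = 0.00713). Cd79a held 4.84, 3.76 and 3.94 CPM in WT proliferating and 3.19, 3.36 and 3.28 in WT differentiating libraries. Its controls were at 5.56 and 5.83 for proliferating and differentiating input, with 7.13 and 5.05 for IgG. WT was in every library below both controls of their stage (log2 −0.64, SE 0.18, edgeR adjusted p = 0.0184; against IgG log2 −0.70, SE 0.23, edgeR adjusted p = 0.187). Actn3, the alpha actinin of fast fibres (chromosome 19, 4861216 to 4877909), held 21.1, 12.3 and 13.8 CPM in WT proliferating and 12.3, 11.5 and 12.8 in WT differentiating libraries. Its controls were at 20.6 and 18.2 for proliferating and differentiating input, with 14.6 and 14.1 for IgG. Replicate 1 of the proliferating cells was just above input and the other 5 libraries below it (log2 −0.49, SE 0.14, edgeR adjusted p = 0.0231).

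Spi1 encodes PU.1, a factor of myeloid and B cells (chromosome 2, 91082374 to 91115759). It held 20.7, 15.8 and 18.1 CPM in WT proliferating and 16.1, 15.3 and 15.1 in WT differentiating libraries. The controls gave 24.1 and 22.1 for proliferating and differentiating input, with 21.8 and 12.99 for IgG. WT was below input in all 6 libraries, below IgG in proliferating and above it in differentiating cells (log2 −0.46, SE 0.10, edgeR adjusted p = 0.00496). Serpina1a, an inhibitor of neutrophil elastase (chromosome 12, 103853295 to 103863619), held 9.25, 6.76 and 7.49 CPM in WT proliferating and 10.1, 9.15 and 8.20 in WT differentiating libraries. Control levels were 11.04 and 12.3 for proliferating and differentiating input, with 7.92 and 4.69 for IgG. WT was below input in all 6 libraries (log2 −0.46, SE 0.12, edgeR adjusted p = 0.0171), and its reads may be shared with near-identical copies. Cd3e, a chain of the T cell receptor complex (chromosome 9, 44998735 to 45009663), held 11.4, 9.77 and 11.4 CPM in WT proliferating and 10.996, 10.4 and 10.3 in WT differentiating libraries. Control levels were 13.5 and 13.3 for proliferating and differentiating input, with 11.9 and 13.3 for IgG. It too was below input throughout (log2 −0.32, SE 0.10, edgeR adjusted p = 0.0310).

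The same bodies measured against IgG gave no call. By edgeR 0 of the 38 members tested (Apoa2 had too few counts) passed, where 0.54% of 23685 genes were higher and 0.739% lower. Without adjustment 2 were lower and 0 higher at a p under 0.05, and DESeq2 called 0, with 2 unadjusted. All 6 WT libraries were above IgG in 3 members (13.7% of all genes) and below in 5 (16.8%). By stage 4 were above and 14 below in proliferating (25.9% and 35.3% of all genes) and 22 and 9 in differentiating cells (40.6% and 33.6%). Of the 12 muscle bodies, 10 were above IgG and 2 below in all 3 differentiating libraries, but 1 above and 2 below in proliferating cells, and against input 3 were above and 7 below in differentiating cells.

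Within a stage no member's body was called against either control. Against input, 2.89% of all genes were higher and 6.38% lower in proliferating and 0.6% and 1.33% in differentiating cells, and 0 of 39 members passed in edgeR. At an unadjusted p under 0.05, 1 was higher and 5 lower in proliferating and 3 and 8 in differentiating cells. Against IgG 0.16% and 0.346% of all genes were higher and lower in proliferating and 0.148% and 0.165% in differentiating cells, and 0 of 38 members passed, with 1 and 1, and 3 and 0, at an unadjusted p under 0.05. The stage difference of the ratio to IgG was called in 0.0127% of all genes and in 0 members (2 higher unadjusted), and that of the ratio to input in 0 members, with 0 unadjusted. DESeq2 was not run within a stage.

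**Figure D4:**
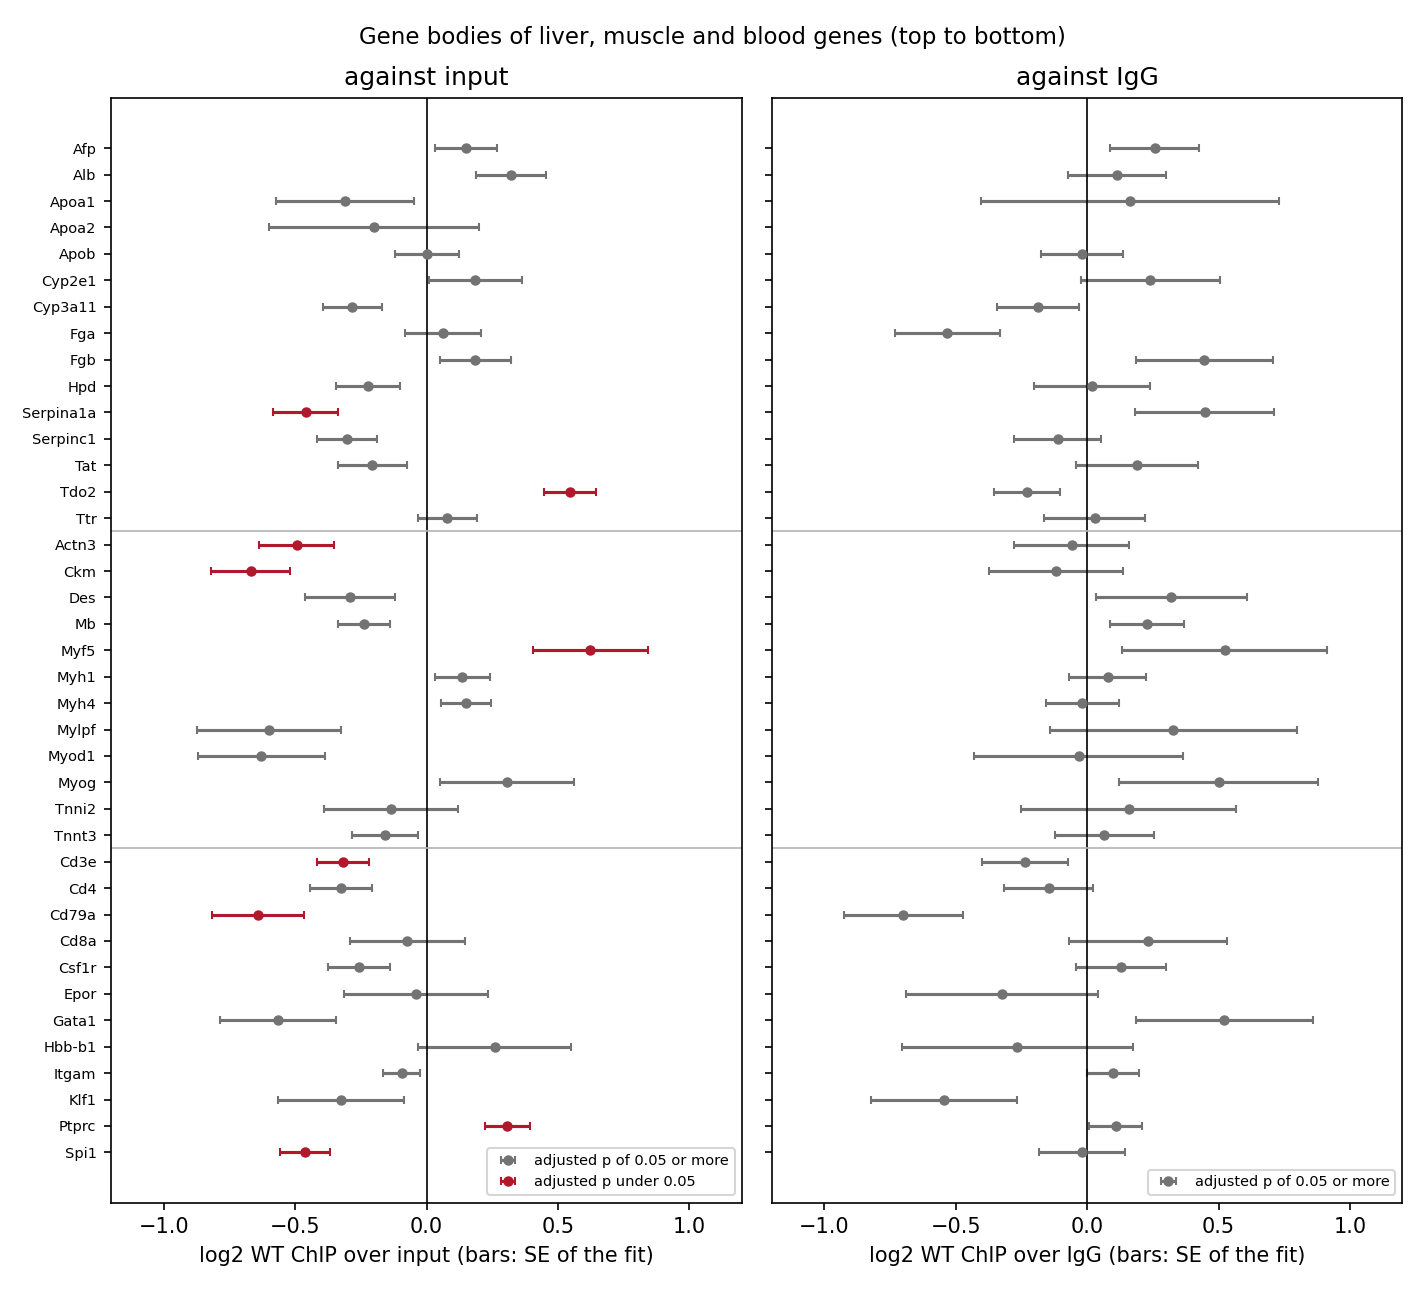
Log2 ratio of WT H3K14ac to input (left) and to IgG (right) over the gene body of each member from the edgeR fits (x axis). Bars are 1 SE, worked back from the F value of the test, and red marks an adjusted p under 0.05. Against input 9 members are red, from −0.67 (Ckm) to 0.62 (Myf5), and against IgG 0 are.

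The side on which a body lay went with the base composition of its promoter, as a description across 30 genes that share the same libraries. The GC content of the promoter and the body's log2 ratio to input had a Spearman rho of −0.54 and a Pearson r of −0.53. Against IgG rho was −0.06 (29 genes). The ratio of IgG to input had a rho of −0.43 with GC in differentiating and −0.11 in proliferating cells. Promoter GC thus moves with the members' ratios to input, and its part in the calls was not tested. The CpG count of the promoter had a rho of −0.19 with the body's ratio to input, and gene length one of 0.10 (39 genes). GC over the bodies was not measured, and these correlations were not computed over all genes.

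**Figure D5:**
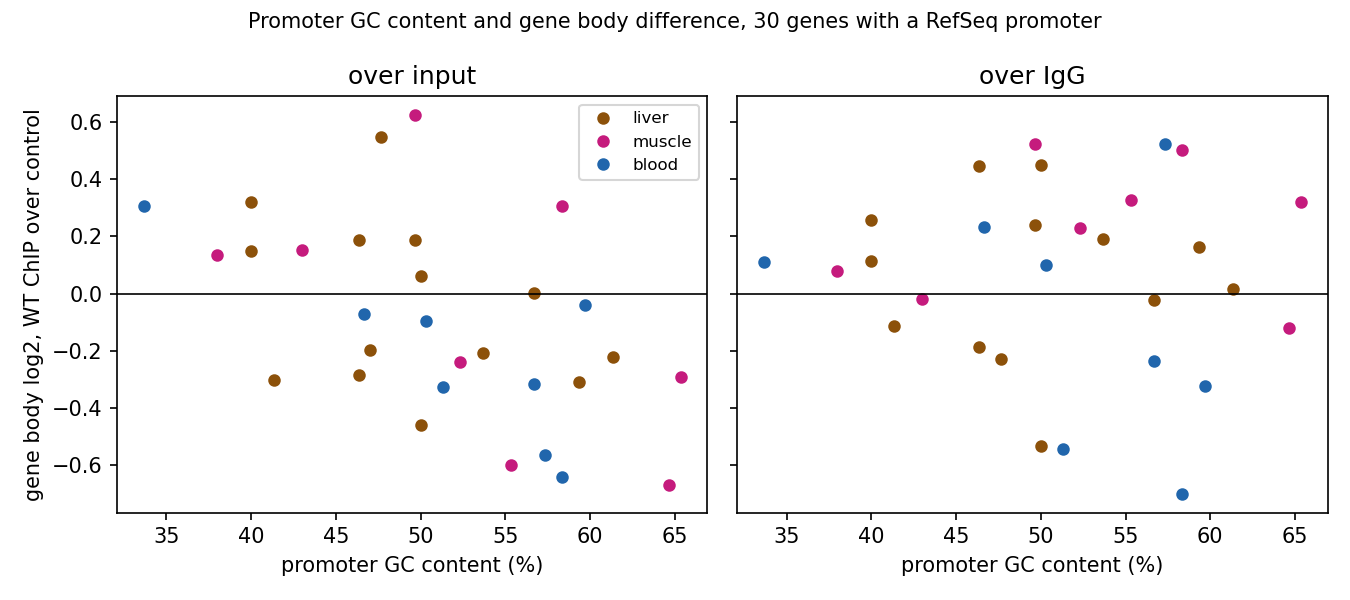
GC content of the 300-base promoter (percent, x axis) against the gene body log2 ratio of WT to input (left, 30 genes) and to IgG (right, 29 genes), coloured by tissue. Against input the genes with more GC sit lower (rho −0.54), and against IgG there is little slope (rho −0.06).

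Between the stages 1 member's window changed. Differentiating and proliferating WT libraries were compared by edgeR with TMM scaling, and 22 members were tested. Cyp3a11 was higher in differentiating cells (log2 1.43, SE 0.46, edgeR adjusted p = 0.0390), where 2.17% of 19477 genes were higher and 4.3% lower. The 3 differentiating libraries, at 0.956 to 1.46 CPM, did not overlap the proliferating ones at 0.501 to 0.788. Its input window moved the same way, from 1.01 to 1.81 CPM (12 and 23 counts), and the call was lost in 7 of 8 alternatives (adjusted p 0.0209 to 0.147). DESeq2 called 0 members, with 4 at an unadjusted p under 0.05.

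Afp, alpha-fetoprotein, a plasma protein of the foetal liver (chromosome 5, 90490714 to 90508907), had too few counts for that test. Its window held 0, 2 and 2 counts in WT proliferating and 15, 15 and 18 in WT differentiating libraries, 0 to 0.501 against 1.05 to 1.195 CPM. The groups did not overlap, and Afp was called with no count filter, where 259 of 26972 genes were higher and 1050 lower. The share of all genes whose stages do not overlap was not counted, for Afp or for Cyp3a11. Input moved as well, from 5 to 15 counts, and IgG had 2 at both stages. With no filter, the median log2 stage difference of all members was 0.14, against 0.05 for all genes. The direction turned with the scaling: with gene body totals in place of TMM the 22 members tested had a median of −0.15 and all genes one of −0.47, and at an unadjusted p under 0.05 the members went from 5 higher and 0 lower to 0 higher and 2 lower. Over gene bodies 0 of 39 members were called between stages by edgeR and by DESeq2, where 0.0366% of 24564 genes were higher and 0.126% lower, and 1 member each way had an unadjusted p under 0.05.

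The libraries labelled Hbo1 null are too shallow for single genes. They held 4 and 14 counts over all 39 windows, with 35 and 28 of the windows at 0. As a ratio to input of the same stage this is 1.26 (95% counting interval 0.343 to 3.25) for proliferating and 0.870 (0.473 to 1.47) for differentiating cells. A difference from input or from WT was not detectable at this depth.

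Against input, no window of the other liver, muscle and blood genes listed was called either. Between the stages edgeR called 1 of 8 further blood windows higher in differentiating cells, with 0 of 16 further liver and 0 of 15 further muscle windows. Of all 19477 genes 2.17% were higher in that test. Of further liver, muscle and blood genes, 0 of 19, 0 of 19 and 0 of 14 tested were called against input, and so were 0 of 8 microglia, 0 of 5 choroid plexus, 0 of 6 pericyte and mural and 0 of 7 Hox genes, all by edgeR. At an unadjusted p under 0.05, these lists held 1 further liver and 1 further blood gene. Of the olfactory receptor windows, 16 of 1012 were higher than input and 5 lower. In this test of windows 11.6% of all 21557 genes were higher and 0.881% lower. Of 25 neural stem and progenitor genes 20 were higher, led by Nfib (log2 2.51) and Fgfr1 (1.92). Over gene bodies, where 8.43% of all genes were higher and 21.3% lower, 3 of 25 further liver genes were higher than input and 0 lower (Cyp2c29 at 0.53 and Cps1 at 0.33). The 25 further muscle genes had 0 higher and 8 lower (Atp2a1 at −0.56 and Myoz1 at −0.65), and the 25 further blood genes 1 higher and 5 lower (Itga2b at −0.48 and Zap70 at −0.40). Bodies lower than input were 16 of 39 for Hox, 2 of 6 for choroid plexus and 0 for microglia and for pericyte and mural genes, with 0 higher in each, and olfactory receptor genes had 51 higher and 6 lower of 1060. These lists were chosen with earlier results of the same data known.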

How the data were processed

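Per the submitters' processing notes, the authors used bcl2fastq and featureCounts on mm10; versions, the aligner and the treatment of multi-mapping reads are not given in the sources used here. What the authors deposited are raw counts for 27095 gene IDs in 12 libraries, in a TSS window of 1000 bases and over gene bodies; 25204 IDs had a RefSeq symbol (GRCm38), all 39 members among them. The 24 deposited sample files equalled the table columns. In 3565 genes of at most 1000 bases both counts are equal.

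From these counts, CPM per gene body total was computed (Python 3.11.15, pandas 2.3.3, SciPy 1.17.1, NumPy 2.4.6). Tests were edgeR 4.0.16 (quasi-likelihood, two-sided, prior count 0.125) in R 4.3.3, fitted on all genes whose mean count was 10 or more and adjusted by Benjamini-Hochberg at 0.05. Each SE is the size of the log2 ratio over the square root of the test's F value. It was worked back from the test, not taken from the fitted coefficient. A control comparison fitted 8 libraries (6 WT, 2 control), stage as a term, scaled by gene body totals; within-stage fits let a lone control vary like WT; stage comparisons used 6 WT libraries with TMM. Comparisons with input and IgG share the WT libraries. Intervals are 95%, exact Poisson or binomial, and cover counting error only. Alternatives were DESeq2 1.42.0 with its own size factors, other scaling and filters, a replicate block and each library left out. DESeq2 thus changed the scaling as well as the test. Tests were also tried on simulated data.

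Values per library are given for members past the threshold, the 2 highest and 2 lowest windows per tissue and Myod1, Alb, Gata1 and Ptprc; Klf1 and Afp were added after their values were seen. Members, lists and this rule were chosen with earlier results of these data known.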

Additional observations from a re-analysis of the deposited data

Results flagged for a closer look

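The summed TSS windows of the 15 liver genes lay below IgG in all 3 proliferating WT libraries and above IgG in all 3 differentiating ones. The mean log2 ratio to IgG was 0.37 higher in differentiating than in proliferating cells. This difference was not tested, and the IgG level itself fell on other sides of input at the 2 stages, at 1.19 times input in proliferating and 0.810 times in differentiating cells. With shares of TSS window counts in place of gene body counts the means over IgG were −0.76 and −0.12, so that both stages were below IgG on average.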

How the results depend on the processing

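Leaving out 1 library at a time moved the count of members called between 0 and 1 for TSS windows against input (1 without WT proliferating replicate 1), between 0 and 2 for TSS windows between stages, and between 0 and 15 for gene bodies against input (15 without WT proliferating replicate 1, 0 without either input library). For TSS windows against input TMM gave 2 calls. For TSS windows between stages DESeq2, gene body totals without TMM and the replicate block each gave 0. For gene bodies against input DESeq2 gave 5 and the replicate block left 1 (Tdo2). Both input libraries carry the number 1, so with the block WT is set against input through WT replicate 1 only. The median log2 ratio of the 28 member windows to input was 0.03 with the block and −0.15 without it. The replicate numbers are not stated to pair the stages, and the same-numbered libraries' deviations correlated at 0.305, 0.262 and −0.0154. For replicate 3 the 4 Y genes summed to 4.204 CPM in WT proliferating and 119.8 CPM in WT differentiating cells. The libraries of that number thus do not hold the same mix of male and female cells at both stages. The block changed no other count. With shares of summed TSS window counts in place of gene body counts, which moves with the share of reads at starts, the mean log2 ratios for proliferating and differentiating cells were −0.51 and −0.27 (liver over input), −0.76 and −0.12 (liver over IgG), −0.55 and −0.53 (muscle over input), −0.35 and −0.24 (muscle over IgG), and −0.49 and −0.066 (blood over IgG), and for proliferating blood over input −0.82. Without Myh1, muscle over IgG in differentiating cells was 0.13. Leaving Ptprc out of the blood bodies was chosen after seeing the data. A minimum mean count of 30 left no member window to test. Single called members were lost in 48 alternatives, and 0 changed direction. Depth limits the comparisons with IgG and with the libraries labelled Hbo1 null most.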
